A study of Mus musculus with 20 samples.

Results

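The set described here holds 39 mouse genes of glycolysis, glycogen metabolism and the creatine kinase system, measured in the muscle and brain of wild-type and TDP-43 mutant mice. Members were all probes of an Illumina mouse bead array whose annotated gene symbol is one of the 39, kept in a tissue where the detection p-value was under 0.05 on at least 4 of 8 muscle or 6 of 12 brain arrays. The array names 16593 genes in all. Of the 39 genes, 35 had a probe, 48 probes of the 25697 on the array in all, and no probe was named for Gpi1, Eno1, Ldhb or Pfkfb1. The detection rule kept 43 probes of 31 genes in muscle and 36 probes of 27 genes in brain, with 33 probes of 25 genes in both tissues. A further 10 probes met the rule in muscle only, 3 in brain only, and the 2 probes of Gbe1 and Pgm2 met it in neither. Pgm1 is used here as in the annotation, for the counterpart of human PGM1, which carried another symbol in older mouse lists.

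Total RNA was taken from muscle of 4 wild-type and 4 mutant mice and from brain of 6 wild-type and 6 mutant mice, each array from a mouse of its own, so that no mouse gave both tissues. The mutants were heterozygous for a transgene of human mutant TDP-43, the RNA-binding protein found in the inclusions of most patients with amyotrophic lateral sclerosis, and the controls carried the label heterozygote wt. All mice were on the C57BL/6J background and aged 17 weeks, and the series describes them as male. Neither the promoter that drives the transgene nor the muscle or brain region taken is given in the sources used here. Because the tissues came from different mice, tissue cannot be told apart from any set in which the arrays were prepared.

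Glycolysis splits glucose to pyruvate in the cytosol, glycogen is the glucose store that phosphorylase opens on demand, and creatine kinase moves the high-energy phosphate of ATP to and from creatine. Many of these steps are catalysed by sister enzymes encoded by separate genes, of which one predominates in skeletal muscle and another in brain or in most other tissues. The muscle forms serve bursts of contraction, and the brain forms serve a steady demand for glucose.

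Levels are log2 values of background-corrected and normalized probe intensity, and a difference of 1 is a doubling. The offset added before the log compresses differences of dim probes, and brightness was compared between arrays for the same probe, never between probes. In such bulk tissue, fewer cells of a type and less RNA per cell cannot be told apart. Between 11469 and 12966 probes were detected on an array. On the first principal component of each tissue, muscle wild type 2 and, in brain, wild type 2, wild type 4 and mutant 2 stood apart, with scores of 39.1, 37.8, 40.4 and 32.2 where the other arrays lay between -20.0 and 14.1. The Y-linked gene Eif2s3y was detected on 8 of 8 muscle arrays but on 6 of 12 brain arrays, 3 of each genotype, which goes against the description of all mice as male. Of 10 skeletal muscle marker genes with a probe, 10 met the detection rule in muscle and 5 in brain. Myh4, Myh1 and Tnnt3 were detected on all 8 muscle arrays and 0 brain arrays, whereas Acta1 and Des were also detected on all 12 brain arrays. Of 9 neuronal genes with a probe, 6 met the rule in brain and 3 in muscle. Syt1, Gad1 and Slc17a7 were detected on 12 brain arrays and 0 muscle arrays, Syp on all arrays of both tissues, and Snap25 and Nefl on 0 arrays of either tissue. As a check of the genotype labels, the brightest probe of mouse Tardbp, which encodes TDP-43, was at 52.3% of wild type in mutant muscle (limma adjusted p = 0.00511) and at 67.1% in mutant brain (adjusted p = 0.15). A second probe was at 64.7% and 68.9% (adjusted p = 0.277 and 0.482), a dimmer one at 97.2% and 108% (adjusted p = 1 and 0.889), and the remaining one did not meet the detection rule; whether any of them binds transgene RNA was not tested.

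The start-site regions of 5 members are shown because they belong to 2 sister pairs whose members were higher in opposite tissues, Ckm and Ckb and Pgam2 and Pgam1, and to Ldha, which held 5 matches of the letters ACGTG. Sequences are from RefSeq (GRCm38.p6), 300 bases each, running 5′ to 3′ from 250 bases before the start of the gene to 50 after it, on the gene's strand. The regions are chr7:19410844-19411143 (plus strand) for Ckm, chr12:111672289-111672588 (minus) for Ckb, chr11:5803747-5804046 (minus) for Pgam2, chr19:41911621-41911920 (plus) for Pgam1 and chr7:46845554-46845853 (plus) for the first of 2 listed start sites of Ldha. Capitals mark matches to 4 motifs on either strand. The letters CANNTG spell an E-box, the kind of site that myogenic factors bind. The site of MEF2, a transcription factor of muscle and neurons, was searched as the letters YTAWWWWTAR. There Y is C or T, W is A or T, and R is A or G. The letters TATAAA spell the core promoter element that bears their name. The letters ACGTG are the core of a hypoxia response element.
Ckm: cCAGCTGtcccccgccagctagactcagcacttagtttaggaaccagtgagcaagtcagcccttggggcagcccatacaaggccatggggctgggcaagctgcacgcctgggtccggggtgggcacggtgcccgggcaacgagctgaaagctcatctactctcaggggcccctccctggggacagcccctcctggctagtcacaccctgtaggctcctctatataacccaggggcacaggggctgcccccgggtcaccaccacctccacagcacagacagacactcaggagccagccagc
Ckb: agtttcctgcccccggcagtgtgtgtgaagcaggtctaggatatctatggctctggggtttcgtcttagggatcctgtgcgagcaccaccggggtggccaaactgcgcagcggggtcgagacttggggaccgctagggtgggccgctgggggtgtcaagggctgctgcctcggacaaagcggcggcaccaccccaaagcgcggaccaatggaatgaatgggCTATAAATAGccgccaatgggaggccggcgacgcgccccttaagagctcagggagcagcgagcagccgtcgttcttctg
Pgam2: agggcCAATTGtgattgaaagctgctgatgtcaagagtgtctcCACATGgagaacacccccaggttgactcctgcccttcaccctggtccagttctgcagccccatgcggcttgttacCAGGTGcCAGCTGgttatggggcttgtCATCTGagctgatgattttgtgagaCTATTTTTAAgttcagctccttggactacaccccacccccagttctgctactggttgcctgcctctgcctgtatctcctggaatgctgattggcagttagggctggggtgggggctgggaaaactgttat
Pgam1: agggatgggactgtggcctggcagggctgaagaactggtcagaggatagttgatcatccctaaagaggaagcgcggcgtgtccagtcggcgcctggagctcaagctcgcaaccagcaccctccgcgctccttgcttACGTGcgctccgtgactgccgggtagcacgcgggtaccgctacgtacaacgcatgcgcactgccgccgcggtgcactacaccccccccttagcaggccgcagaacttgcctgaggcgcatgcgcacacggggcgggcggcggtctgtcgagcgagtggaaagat
Ldha: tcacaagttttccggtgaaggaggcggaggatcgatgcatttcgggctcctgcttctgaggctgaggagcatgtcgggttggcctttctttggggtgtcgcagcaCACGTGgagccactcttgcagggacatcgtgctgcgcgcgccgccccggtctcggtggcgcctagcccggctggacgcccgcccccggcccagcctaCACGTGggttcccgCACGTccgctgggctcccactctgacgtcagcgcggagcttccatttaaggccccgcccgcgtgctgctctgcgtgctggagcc
The Ckm window held 1 E-box and the Pgam2 window 5 E-boxes and 1 MEF2 match, whereas the Ckb and Pgam1 windows held 0 E-boxes. Other sister pairs also differed in opposite directions and are not shown, so these pairs do not stand for all. Hk2, higher in muscle, held 0 E-boxes, and its sister Hk1, higher in brain, held 1 and 3 at its listed start sites. In Ckb a MEF2 match and a TATAAA lie on the same bases, and in Ldha the letters CACGTG are an E-box and an ACGTG match on both strands. Of the members, 36 had a sequence of this kind. ACGTG was found for 50% of them (18 genes) and for 21.8% of all 27025 genes with such a sequence, counting a gene once if any of its start sites held it. E-boxes were as frequent among members as among all genes, at 75% of each. They were found for 84.2% of the 19 members that were higher in muscle and for 44.4% of the 9 that were higher in brain. TATAAA was found for 16.7% of members against 15.7% of all genes, and MEF2 sites for 8.33% against 3.70%. The other motifs did not share the E-box direction throughout. In members higher in muscle and in brain, ACGTG was found for 57.9% and 44.4%, and TATAAA for 5.26% and 44.4%. MEF2 sites were found for 5.26% and 11.1%, which is 1 gene each. These are matches of letters in one window, not sites of binding.

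The muscle and brain members separated widely between the tissues. In wild-type mice 42 of 46 member probes differed between muscle and brain by limma with Benjamini-Hochberg adjustment over all 14022 probes tested, 30 higher in muscle and 12 higher in brain. That is 91.3% of the member probes, where 75.9% of all probes passed the same test, so that passing it says little by itself. The sizes differed more. Differences of over 32-fold were found for 12 member probes, 26.1%, against 2.27% of all probes. Detection in 1 tissue alone favours a difference, so the 33 member probes detected in both tissues are also given by themselves. Of these, 30 passed (90.9%, against 74.1% of all such probes), 25 passed with over 2-fold (75.8%, against 37.2%) and 8 with over 32-fold (24.2%, against 1.25%). Counting each gene by its brightest probe, 21 of 33 genes were higher in muscle, 10 were higher in brain, and Gpd2 and Pgk1 did not pass. Groups did not overlap for 28 member probes that were higher in muscle and 10 that were lower, where this held for 31.9% and 28.3% of all probes. By direction, 40.7% of all probes passed as higher in muscle and 35.2% as lower. The median difference over all probes was 0.08.

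**Figure D1:**
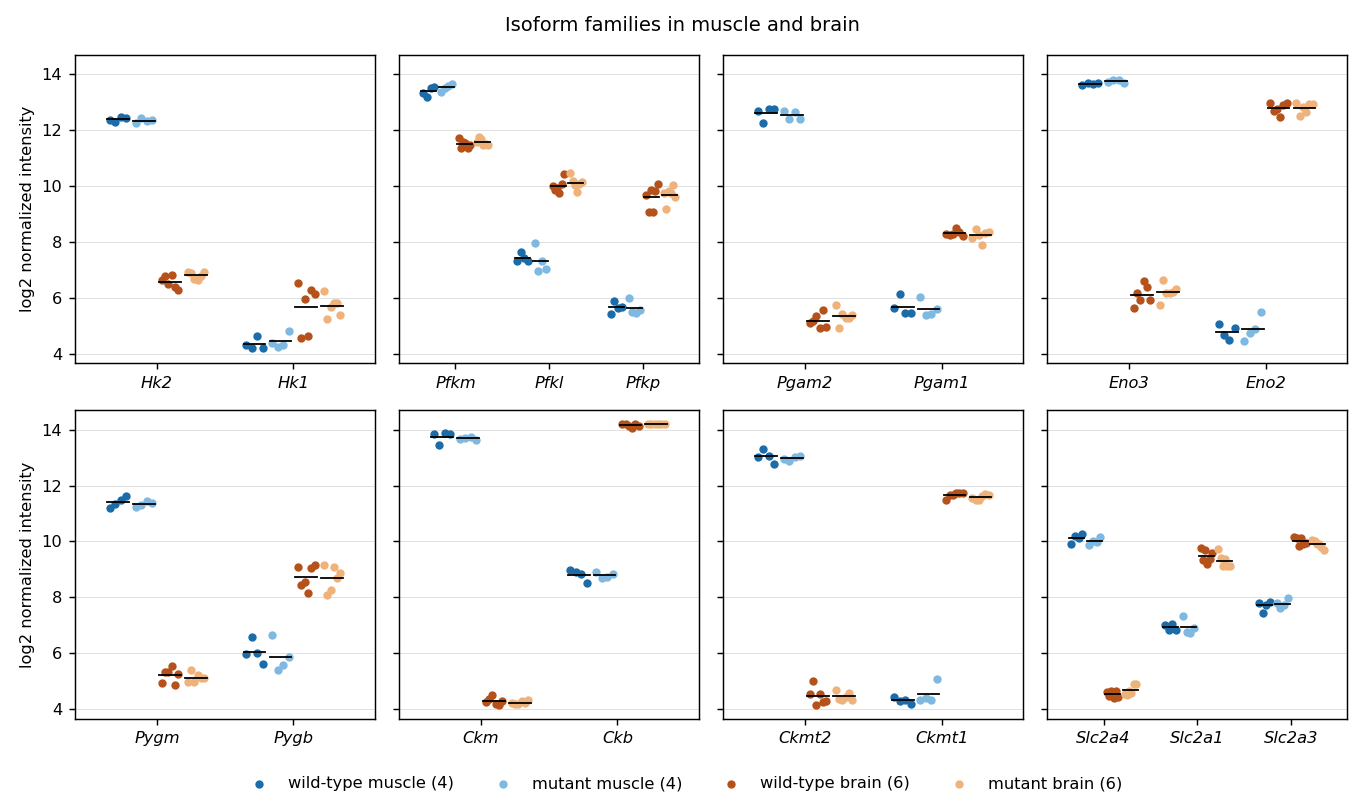
Log2 normalized intensity (vertical axes) of the brightest probe of each member in 8 isoform families, with 1 point per array, 4 wild-type and 4 mutant muscles in blue and 6 wild-type and 6 mutant brains in orange, and a line at each group's mean. Colours are to be compared within a gene, since probes differ in brightness; muscle and brain points separate for every gene shown but Hk1, while wild-type and mutant points overlap or nearly touch.

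The creatine kinases lay far apart between the tissues. Ckm, the cytosolic muscle enzyme, read 13.84, 13.44, 13.88 and 13.84 in the 4 wild-type muscles, and 4.16 to 4.50 (median 4.27) in the 6 wild-type brains, where it was detected on 0 arrays. The groups did not overlap, and Ckm was at least 583-fold higher in muscle, a bound set by the lowest detected level in brain (limma adjusted p = 8.52e-26). Its sister Ckb, the brain form, went the other way. Ckb read 8.97, 8.92, 8.84 and 8.51 in muscle and 14.07 to 14.20 (median 14.18) in brain, 40.9-fold higher in brain (log2 difference -5.36, SE 0.09, adjusted p = 1.58e-22). Ckb was thus lower in muscle without being absent there, since all 4 muscles detected it. Quantile normalization gives the brightest probe of each array the same value, which makes the brain values of Ckb tie at 14.20 on several arrays.

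The mitochondrial creatine kinases, which sit between the mitochondrial membranes, showed the same division. Ckmt2, the sarcomeric form, read 13.03, 13.31, 13.06 and 12.78 in muscle and 4.16 to 5.02 (median 4.42) in brain, with detection on 2 of 6 brain arrays and a difference of 8.57 (SE 0.14, adjusted p = 1.4e-22). Its other probe gave 8.25. Ckmt1, the ubiquitous form, read 4.44, 4.29, 4.33 and 4.17 in muscle, detected on 0 of 4 arrays, and 11.50 to 11.74 (median 11.70) in brain. It was at least 130-fold higher in brain (adjusted p = 1.61e-22), and the groups did not overlap.

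Enolase, which makes phosphoenolpyruvate, has a muscle form and a neuronal form among the members. Eno3, the muscle form, read 13.62, 13.67, 13.64 and 13.67 in muscle and 5.62 to 6.60 (median 6.05) in brain, 188-fold higher in muscle (adjusted p = 1.07e-20). Eno2, the neuronal form, read 5.05, 4.68, 4.50 and 4.92 in muscle, detected on 3 of 4 arrays, and 12.48 to 12.97 (median 12.82) in brain, 256-fold higher there (adjusted p = 6.15e-21). Phosphoglycerate mutase, the step before enolase, gave a like contrast. Pgam2, its muscle form, read 12.69, 12.25, 12.76 and 12.74 in muscle and 4.91 to 5.54 (median 5.13) in brain, a 174-fold difference (adjusted p = 3.17e-21). Pgam1 was 6.23-fold higher in brain, at 8.21 to 8.48 (median 8.28) against 5.63, 6.14, 5.44 and 5.45 in muscle (adjusted p = 3.46e-13). All 4 genes were detected in both tissues, and none of them had overlapping groups.

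In the early steps the sister genes differed by unequal amounts. Hk2, the insulin-responsive hexokinase, read 12.37, 12.29, 12.47 and 12.44 in muscle and 6.27 to 6.80 (median 6.55) in brain, 57.2-fold higher in muscle (adjusted p = 9.3e-22). Hk1, the hexokinase of brain, was detected on 0 of 4 muscle arrays and on all 6 brain arrays. Its mean was at least 2.04-fold higher in brain (log2 difference -1.34, SE 0.31, adjusted p = 0.000611). Its brain values ran from 4.55 to 6.51. Brain wild type 2, at 4.55, lay inside the muscle range of 4.21 to 4.63, and brain wild type 4, at 4.64, just above it. Without the 4 arrays that stood apart the Hk1 difference was -1.72 (SE 0.17). With a test against a minimum of 2-fold, Hk1 no longer passed (adjusted p = 0.447).

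Phosphofructokinase, the committed step of glycolysis, is built from the subunits encoded by Pfkm, Pfkl and Pfkp. Pfkm, the muscle subunit, read 13.34, 13.19, 13.51 and 13.53 in muscle and 11.35 to 11.71 (median 11.50) in brain, 3.73-fold higher in muscle (adjusted p = 1.55e-13). Pfkp, the platelet-type subunit that is also abundant in brain, was 15.3-fold higher in brain (adjusted p = 3.51e-14) and Pfkl, the liver-type subunit, 5.98-fold higher in brain (adjusted p = 7.01e-12). Pfkm was detected in both tissues. Other probes of these genes gave smaller or other values. The dimmest Pfkm probe differed by 4.16, a second Pfkp probe by -0.71, another by -0.43 (adjusted p = 0.123), and a second Pfkl probe by -0.09 (adjusted p = 0.608), these last 3 all dim. Pfkfb3, which makes the phosphofructokinase activator fructose 2,6-bisphosphate, was detected on 0 of 6 brain arrays, and its mean was at least 2.14-fold higher in muscle. It did not pass a limma test against a minimum of 2-fold (adjusted p = 0.101). The mean of Fbp2, the muscle fructose bisphosphatase that runs the step in reverse, was at least 17.8-fold higher in muscle.

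The glucose transporters followed their tissues. Slc2a4 encodes GLUT4, the transporter that insulin moves to the muscle surface, and read 9.91, 10.19, 10.11 and 10.26 in muscle and 4.40 to 4.65 (median 4.53) in brain, with detection on 3 of 6 brain arrays and a 48.2-fold difference (adjusted p = 1.62e-21). Slc2a1, which encodes GLUT1 of the blood-brain barrier, was 5.90-fold higher in brain (adjusted p = 4.19e-13). Slc2a3, the neuronal transporter GLUT3, was 4.98-fold higher in brain (adjusted p = 1.04e-14). None of the 3 genes had overlapping groups.

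Of the remaining enzymes of the glycolytic chain, all but Pgk1 were higher in muscle by their brightest probes. Aldoa, encoding the aldolase of muscle, was 5.67-fold higher in muscle and Ldha, encoding the lactate dehydrogenase subunit that predominates in fast muscle, 6.40-fold (adjusted p = 4.62e-13 and 1.71e-15). Tpi1, Gapdh and Pkm, which act in the middle and at the end of the pathway, were higher in muscle by 0.76, 0.40 and 0.53 on the log2 scale (SE 0.10, 0.08 and 0.19, adjusted p = 5.72e-07, 0.000106 and 0.0161). These small differences depended on the scaling: with median scaling in place of quantile normalization they were 1.78, 1.52 and 1.44. The same scaling moved Pfkm to 2.75, Aldoa from 2.50 to 3.27 and Ldha from 2.68 to 3.36. For Pkm, brain values of 11.53 to 12.66 overlapped the muscle values of 12.61 to 12.86. Tpi1 had probes that disagreed, 2 of them higher in muscle (0.76 and 2.31) and 1 dim probe lower there (-1.03, adjusted p = 0.00959). Pgk1 was dim in both tissues and differed by 0.21 in wild type (adjusted p = 0.114) and by 0.40 in mutants (adjusted p = 0.00539).

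The detected glycogen genes were higher in muscle with 1 exception. Pygm, the muscle glycogen phosphorylase, read 11.20, 11.35, 11.47 and 11.62 in muscle and 4.87 to 5.53 (median 5.30) in brain, 73.4-fold higher in muscle (adjusted p = 5.66e-21). Pygb, the brain phosphorylase, was the exception, 6.45-fold higher in brain, where it ran from 8.14 to 9.14 against 5.96, 6.59, 5.99 and 5.63 in muscle (adjusted p = 6.25e-09). Phosphorylase kinase, which switches phosphorylase on, followed Pygm. Its muscle gamma subunit Phkg1 was 44.4-fold higher in muscle and its muscle alpha subunit Phka1 25.5-fold, with Phka1 detected on 4 of 6 brain arrays (adjusted p = 4.56e-22 and 1.85e-18). On the side of synthesis, Pgm1, which interconverts glucose 1-phosphate and glucose 6-phosphate, was 17.8-fold and Ugp2, which makes UDP-glucose, 9.63-fold higher in muscle (adjusted p = 5.64e-16 and 2.81e-13). Gys1, the muscle glycogen synthase, was at least 3.84-fold higher, being detected on 0 of 6 brain arrays. Both glycerol 3-phosphate dehydrogenases, which carry reducing equivalents from the cytosol into mitochondria, were measured too. The cytosolic Gpd1 was 11.8-fold higher in muscle (adjusted p = 1.76e-15). The mitochondrial Gpd2 differed by 0.54 by its brightest probe (SE 0.41, adjusted p = 0.233) with overlapping groups. A dim second Gpd2 probe passed as higher in muscle by 0.66 (SE 0.16, limma adjusted p = 0.00106), also with overlapping groups.

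**Figure D2:**
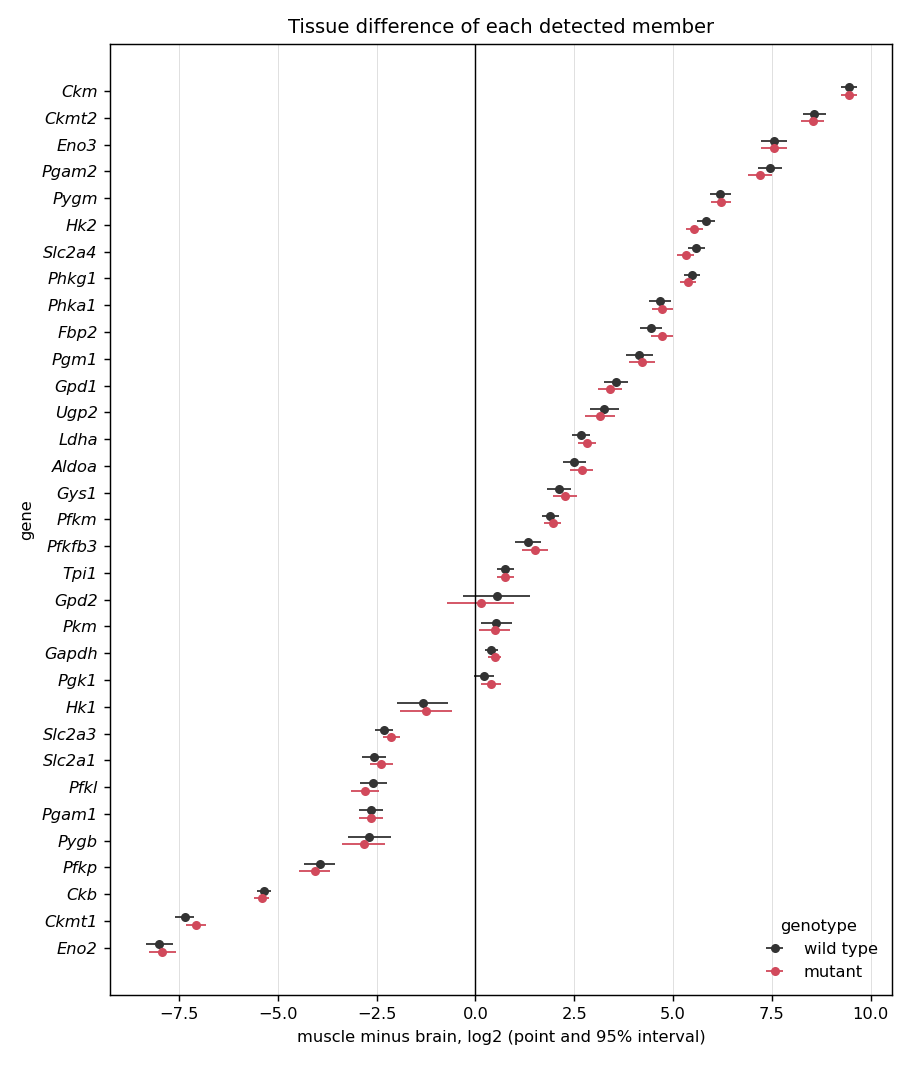
Muscle minus brain difference (horizontal axis, log2) of the brightest probe of each of 33 members, ordered by the wild-type value, with 95% intervals from limma; black points are wild-type mice and red points mutant mice. Ckm is at the top at 9.45 and Eno2 at the bottom at -8.00, and for each gene the points of the genotypes lie close together.

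The mutant mice, whose arrays share none with the wild-type comparison, gave the tissue contrast again. Both comparisons came from the same fit, over arrays normalized together, and used a shared estimate of the spread. Their p-values are therefore not independent. In them 43 of 46 member probes passed (93.5%, where 76.4% of all probes did), 31 higher in muscle (41% of all probes) and 12 higher in brain (35.4% of all probes). The fitted differences, which are no bounds for undetected probes, were 9.46 for Ckm, 8.53 for Ckmt2, 7.54 for Eno3 and 7.21 for Pgam2. Eno2 differed by -7.92, Ckmt1 by -7.06 and Ckb by -5.41. The within-array ratio of a muscle probe to its brain sister, as a description with no test, shifted from wild-type brain to wild-type muscle by 15.93 on the log2 scale for Ckmt2 over Ckmt1, 15.55 for Eno3 over Eno2 and 14.81 for Ckm over Ckb. The shift was 10.08 for Pgam2 over Pgam1, 8.89 for Pygm over Pygb, 8.15 for Slc2a4 over Slc2a1, 7.17 for Hk2 over Hk1 and 5.84 for Pfkm over Pfkp. Readings not above background supply every value of Ckm in brain and of Ckmt1 and Hk1 in muscle. Some such readings also enter for Ckmt2 and Slc2a4, detected on 2 and 3 of 6 wild-type brain arrays, and for Eno2, on 3 of 4 wild-type muscle arrays. Between genotypes of the same tissue the ratios shifted by -0.12 to 0.15 in muscle and by -0.05 to 0.34 in brain. These ranges cover only pairs whose probes both met the detection rule in that tissue. They leave out Ckmt2 over Ckmt1 in both tissues, Hk2 over Hk1 in muscle and Ckm over Ckb in brain.

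No member probe passed the genotype test in either tissue. In muscle, 0 of 43 member probes had an adjusted p under 0.05 by limma, where 21 of 11706 probes did (0.179%), and 0 had an unadjusted p under 0.05, where 3.02% of all probes did. The median difference of the member probes was -0.02, with 20 above 0 and 23 below, beside a median of 0.01 over all probes. On the offset scale, the 95% interval lay within 1.5-fold for 37 of 43 probes and within 2-fold for 42. The single probe with an interval wider than that was the dimmest Pfkm probe. For dim probes the offset compresses differences, so a narrow interval does not exclude a larger change in RNA. Pgk1, for example, read 4.64 in wild type and was detected on 3 of 4 arrays of each genotype. At the bright end, quantile normalization turns values into steps of rank, which can also narrow the intervals. Ckm ranked 6 to 22 and Eno3 8 to 15 by signal on the muscle arrays.

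Ckm read 14.46, 14.09, 14.49 and 14.46 in wild type and 14.34, 14.37, 14.38 and 14.28 in mutants, on the scale of muscle arrays normalized alone. The mutant values lay inside the wild-type range, and the difference was -0.03 (SE 0.12). The low end of that range was wild type 2, the muscle array that stood apart; the other wild types lay above every mutant, and without it the difference was -0.14 (SE 0.10, limma adjusted p = 0.913). The 6 genes of lowest p in muscle were Fbp2, Pfkm, Gpd2, Phkg1, Slc2a4 and Pkm, each with an adjusted p of 1. Fbp2 differed most among them, with 9.39, 8.46, 8.96 and 8.49 in wild type and 9.33, 8.91, 9.37 and 9.01 in mutants, overlapping groups with a difference of 0.33 (SE 0.21). The differences of the other five were 0.13 for Pfkm, 0.15 for Gpd2, 0.13 for Phkg1, -0.12 for Slc2a4 and -0.12 for Pkm. With each array left out in turn they kept their signs but ran from 0.07 to 0.18 for Pfkm, 0.05 to 0.22 for Gpd2, 0.07 to 0.23 for Phkg1, -0.19 to -0.06 for Slc2a4 and -0.23 to -0.06 for Pkm, and that of Fbp2 from 0.21 to 0.51. Eno3 was the single member whose groups did not overlap in muscle, with 14.28, 14.34, 14.30 and 14.34 in wild type and 14.37, 14.43, 14.41 and 14.35 in mutants. The difference of 0.08 (SE 0.09) did not pass, and 1.06% of all probes had groups that did not overlap in this direction. No member was lower without overlap, where 1.09% of all probes were.

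Marker levels also varied among the muscles. The mean level of 9 slow fibre genes, all detected, was 6.95 in wild type 4 and 9.08 to 10.12 in the other wild types, and 8.35 to 9.70 in the mutants. The mean level of 9 fast fibre genes spanned 13.89 to 14.02 over all 8 muscles. Levels of 2 lists did not overlap between genotypes. The 9 detected genes of 10 pancreatic acinar markers were at 6.15 to 6.94 in wild type and 4.98 to 5.07 in mutants. Of 5 microglia and macrophage genes with a probe, the 3 detected had a mean level of 5.63 to 6.11 in wild type and 5.50 to 5.61 in mutants. The part of marker levels in the member values was not tested beyond fits with the slow fibre, the acinar or the adipocyte level as a covariate. In each of these fits 0 member probes passed. Because the acinar level nearly follows genotype, the fit with it could hardly show a genotype difference.

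**Figure D3:**
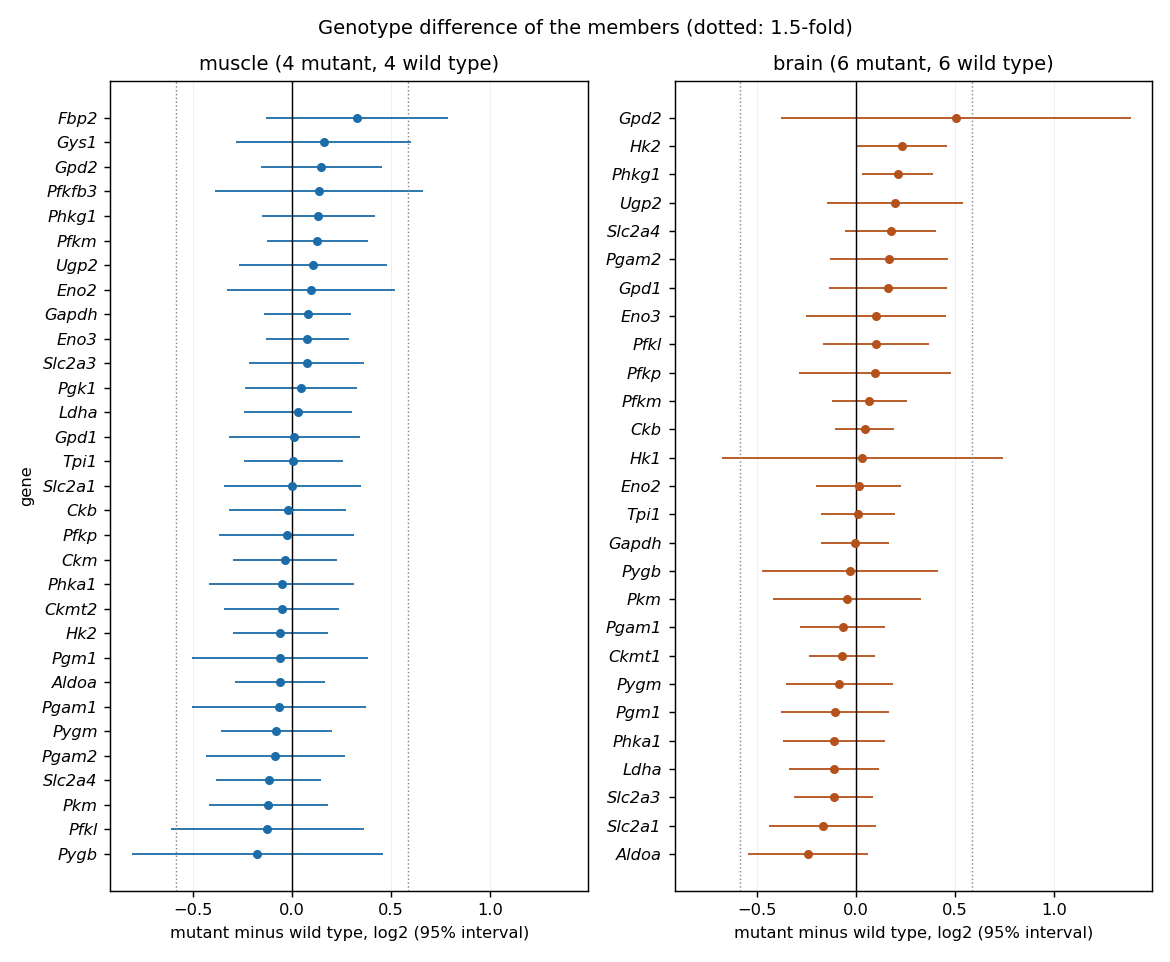
Mutant minus wild-type difference (horizontal axes, log2, with 95% intervals from limma) of the brightest probe of each member in muscle (31 genes, left) and brain (27 genes, right), ordered by size; dotted lines mark 1.5-fold in either direction. The intervals of Phkg1 and Hk2 in brain alone leave out 0, and neither passes after adjustment; the intervals of Gpd2 and Hk1 in brain are the widest.

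In brain, 0 of 36 member probes passed, where 1 of 12423 probes did (0.00805%), and the smallest adjusted p among members was 0.643. Unadjusted p-values under 0.05 were found for 3 member probes, with 7.02% of all probes at that level. For 31 of 36 probes the interval lay within 1.5-fold and for 35 within 2-fold, and no member had groups that did not overlap (0.209% of all probes did so as higher and 0.386% as lower). As in muscle, the offset compresses the intervals of dim probes. Ckb, at the top of every brain array, read 13.88 in all 6 mutants after quantile normalization, so its interval could hardly show an increase. Phkg1 ran from 5.70 to 5.93 in wild type and from 5.85 to 6.12 in mutants, a difference of 0.21 (SE 0.08, adjusted p = 0.643). Hk2 differed by 0.23 (SE 0.11, adjusted p = 0.702), with values of 6.34 to 6.84 in wild type and 6.69 to 6.96 in mutants. The third probe of Tpi1, not its brightest, differed by -0.31 (SE 0.12, adjusted p = 0.643), while the brightest Tpi1 probe spanned 12.02 to 12.33 in wild type and 12.00 to 12.31 in mutants. The next genes by p were Aldoa at -0.24, Slc2a4 at 0.17, Slc2a1 at -0.17 and Ugp2 at 0.20, with adjusted p from 0.759 to 0.830. With median scaling the differences of Phkg1, Hk2 and Ugp2 turned to values at or below 0, and the median over all brain probes moved to -0.21.

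Leaving out the 3 brain arrays that stood apart, a choice made after seeing the data, again gave 0 member probes passing (smallest adjusted p = 0.323), with 7 of 36 at an unadjusted p under 0.05, where 11.4% of all probes were in the same fit. Hk2 was then 0.32 higher in mutants and Hk1 lower by -0.40 (SE 0.15, adjusted p = 0.365), where Hk1 over all 12 arrays had differed by 0.03 (SE 0.33). Leaving out the 6 brain arrays without detected Eif2s3y also gave 0 passing. The regional markers varied between brains as well. Of 5 cerebellar genes with a probe, the 3 that met the detection rule had a mean level of 6.79 in wild type 6. Their mean was 9.38 to 10.06 in the other wild types and 9.21 to 10.00 in the mutants. With these levels and those of hypothalamic and pituitary genes as covariates, 0 member probes passed.

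The genotype effects of muscle and brain were also set against each other in 1 fit. Of the 33 member probes tested in both tissues, 0 passed this difference test, where 5 of 10107 probes did (0.0495%), and the smallest adjusted p among members was 0.995. None of the 33 had an unadjusted p under 0.05, beside 4.30% of all probes. Hk2 had the lowest p, with a genotype difference 0.30 smaller in muscle than in brain (-0.30, SE 0.15), and the intervals of 18 of the 33 lay within 1.5-fold.

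Several probes moved with the arrays that stood apart and not with genotype. For Pfkm and Tpi1 the brightest probe of the same gene moved less on the same arrays, but this did not hold for every gene. In muscle the dimmest Pfkm probe ILMN_1252214 read 7.20 in wild type 2 and 10.15 to 10.53 on the other 7 arrays, while the brightest Pfkm probe read 13.87 there and 14.01 to 14.30 elsewhere. This array alone set the probe's genotype difference of 0.75 (SE 0.61), which was -0.05 (SE 0.12) without it. Both Gys1 probes were lowest there, at 5.76 and 5.74, against 6.11 to 6.53 and 6.52 to 6.79 on the other muscle arrays. In brain, the brightest Gpd2 probe read 7.21, 7.74 and 7.90 in wild type 2, wild type 4 and mutant 2, and 7.87 in wild type 1, against 9.06 to 9.47 on the other 8 arrays. Its within-group SD was larger than that of 98.7% of all probes tested in brain. The other Gpd2 probe lay near background in brain, at 4.34 to 4.75, and had little room to fall. Hk1, which has 1 probe, read 4.58, 4.69 and 5.30 on the 3 arrays apart and 5.45 to 6.57 on the others. The Tpi1 probe ILMN_1231447 read 6.07, 6.36 and 6.49 against 6.94 to 8.16. The brightest Tpi1 probe read 12.08, 12.02 and 12.00 there and 12.18 to 12.33 elsewhere. The brightest Pfkp probe also fell there, to 8.96, 8.96 and 9.08 against 9.48 to 9.90 elsewhere. The median within-group SD of the member probes in brain, 0.21, was close to the 0.22 of all probes, so the spread belongs to a few probes. What sets these arrays apart was not tested.

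**Figure D4:**
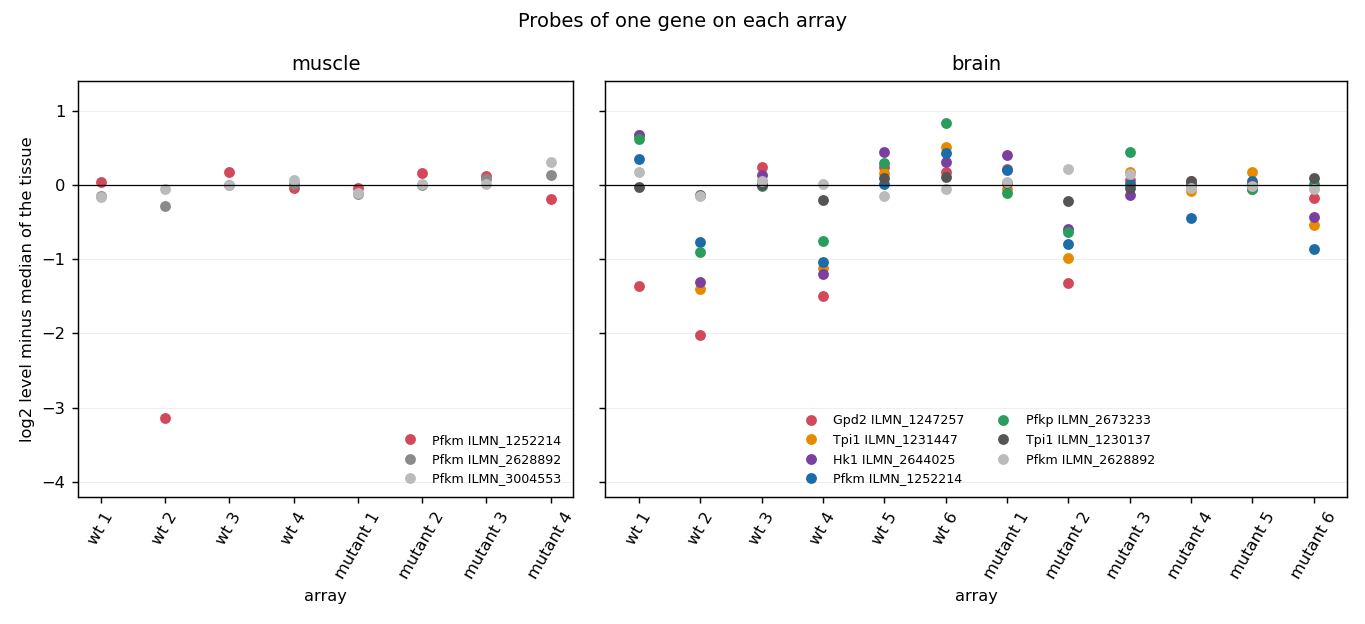
Level of named probes on each array minus the probe's median over the arrays of the tissue (vertical axis, log2), for 8 muscle arrays (left) and 12 brain arrays (right), with 1 colour per probe. Pfkm ILMN_1252214 falls below -3 on muscle wild type 2, and the probes of Gpd2, Tpi1, Hk1, Pfkm and Pfkp drop together on brain wild type 2, wild type 4 and mutant 2 while the brightest probes of Tpi1 and Pfkm stay near 0.

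Other genes of the same pathways, from lists of the neighbouring steps, gave the same result for genotype. In muscle 0 of 17 other glycolysis and pyruvate genes, 0 of 16 other glycogen genes, 0 of 6 creatine and adenylate kinase genes, 0 of 4 pentose phosphate genes and 0 of 6 genes of the glycerol phosphate and malate-aspartate shuttles passed, and in brain 0 of 17, 13, 7, 4 and 6. The lowest adjusted p among them was 0.620, for Gyg, the primer protein of glycogen, in brain (-0.34, SE 0.13). Between wild-type tissues, where 40.7% of all probes passed as higher in muscle and 35.2% as higher in brain, 12 of 20 other glycolysis and pyruvate genes were higher in muscle and 4 in brain. Aldoc, the brain aldolase, was at least 222-fold higher in brain, with detection on 0 of 4 muscle arrays. Pdk4, the kinase that shuts pyruvate dehydrogenase, was higher in muscle by 6.01 on the log2 scale. Of 16 other glycogen genes, 10 were higher in muscle and 4 in brain, among them Stbd1, a glycogen-binding protein (4.14), Ppp1r3c, which targets a phosphatase to glycogen (3.74), and Phkg2, the phosphorylase kinase gamma subunit of liver and testis (-1.76). Of 8 creatine and adenylate kinase genes, 4 were higher in muscle and 3 in brain. Ampd1, the muscle AMP deaminase, was at least 398-fold higher in muscle, with detection on 0 of 6 brain arrays, and Ak1, the cytosolic adenylate kinase, was higher there by 4.03 on the log2 scale. Ampd2, another AMP deaminase, was higher in brain (-2.39), as was Ak5, an adenylate kinase of brain, by at least 5.03-fold. All 6 shuttle genes tested and 3 of 4 pentose phosphate genes were higher in muscle, among them Slc25a12, the mitochondrial aspartate-glutamate carrier (2.32), and Rpia, ribose 5-phosphate isomerase (2.00).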

How the data were processed

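RNA was extracted with Trizol and RNeasy and labelled as biotinylated cRNA with the MessageAmp kit, per the labels' protocols; the submitters' processing notes name GenomeStudio 2011.1. Of 2 deposited tables, the one used here gives a raw intensity per probe and array, not normalized or background-subtracted, and a detection p-value beside it, per the file headers. A second deposited table of processed intensity has values down to -14.5 and ranks identical to the raw signals; it served as an alternative. In the platform annotation 23978 probes have a single gene symbol, 1719 have none, and 0 have several.

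Intensities were background-corrected by normexp, whose negative-control mean and variance limma estimated from detection p-values; after adding 16 to every value they were quantile normalized and put on the log2 scale (limma 3.58.1, R 4.3.3), within each tissue for genotype and over all 20 arrays for tissue and for the difference of genotype effects. Tests covered probes meeting the detection rule of at least 4 muscle or 6 brain arrays: 11706, 12423, 14022 in either and 10107 in both. Each contrast was tested in limma (lmFit, then eBayes), and p-values were adjusted by Benjamini-Hochberg across every tested probe, with 0.05 as the threshold. A probe detected on no array of a group gives a fold bound, which divides the bright group's mean by a floor: on each dim array, its lowest detected level or the probe's own level, whichever was higher. Such a bound is a ratio of means and takes no account of the spread between arrays. Fits were tested on simulated data. Replicates are separate mice, so p-values measure the spread between mice, and the number of arrays limits the precision.

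Each gene is represented by its brightest tested probe. All detected members get tissue values; for genotype, the 6 genes of lowest p per tissue are named, and up to 4 genes of lowest p per pathway list. Disagreeing probes, Eno3 and Ckm in the genotype comparison were chosen after their values were seen. Members and lists were chosen with earlier results of these data known. A further gene of the study is not reported here.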

Additional observations from a re-analysis of the deposited data

Results flagged for a closer look

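A level of 1 array lay apart from the rest of its group for 7 of 116 groups of member levels checked, by the gap to the nearest array relative to the range; chance gives about 1 in 20. On muscle wild type 2, Ckm read 14.1, where the other wild types read 14.5, and Pgam2 read 12.8, where they read 13.3 to 13.4; this array also stood apart on the first principal component. In muscle mutant 1, Pfkp read 5.88 against 5.33 to 5.42. In brain, Ckb read 13.7 in wild type 4 against 13.8 to 13.9, and Ckmt1 read 11.3 in wild type 1 against 11.4 to 11.5. Ckb ranked 1 to 3 by signal on every brain array, so its gap is a step of rank after quantile normalization. Gpd1 read 5.27 in brain mutant 1 against 5.67 to 5.89, and Gpd2 read 7.9 in brain mutant 2 against 9.06 to 9.45. The last is 1 of the 3 brain arrays that stood apart, as is wild type 4.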

How the results depend on the processing

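The genotype tests gave 0 member probes passing in muscle under 19 alternatives, in brain under 24 and for the difference between tissues under 28, each count including every array left out in turn (0 to 0). The tissue count of 42 in wild type ran from 33 (test against a minimum of 2-fold) to 43. In that test Gapdh, Hk1, Pfkfb3, Pkm and Tpi1 did not pass. The brightest Gpd2 probe, which did not pass, did so with median scaling (0.73, limma adjusted p = 0.0343). With the replicate number as a block 0 member probes passed in muscle and in brain and Gpd2 passed between tissues (0.80, adjusted p = 0.0494); same-numbered samples correlated by -0.25 to 0.11 in muscle and -0.07 to 0.62 in brain, above 0.1 in 1 of 4 and 4 of 6 pairs, and 1 of 8 and 2 of 12 samples correlated best with their own number, so the numbers were not taken to pair the samples. All-probe genotype calls were 21 in muscle, and 12 with the block, 8 with an offset of 50, without the detection filter or with detection on every array, 3 without background correction, 2 with median scaling and 0 with the acinar level as a covariate. In brain they were 1, and 5 with array weights, 2 with an offset of 50, without background correction or with detection on every array, and 0 with the block. With median scaling the brain differences of Phkg1, Hk2 and Ugp2 reversed to -0.00136, -0.0344 and -0.073; the median of all brain probes moved to -0.21 there. With the acinar level as a covariate, which nearly follows genotype, the muscle differences of Fbp2 and Slc2a4 reversed to -0.973 (SE 0.693) and 0.359 (SE 0.449). The isoform shifts were smaller without background correction (4.51 for Pfkm over Pfkp to 12.3 for Eno3 over Eno2). With median scaling several were larger, such as Pfkm over Pfkp at 6.71 from 5.84 and Ckmt2 over Ckmt1 at 16.37 from 15.93. Dim probes give compressed differences, and levels near background limit Pgk1, Hk1, Pfkfb3 and Gys1. The cause of these changes was not tested.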
